A study of Mus musculus with 18 samples.

Results

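The genes described here were 10 members of the Notch pathway, named by symbol among the 57126 genes of the count table. They comprised 4 receptors (Notch1, Notch2, Notch3 and Notch4), 3 ligands (Jag1, Jag2 and Dll1) and 3 target genes (Nrarp, Hes1 and Hey1). The set was chosen by name together with the measured CPM of Nrarp, which separated MaPR172H/- from MaP-/- tumors, so for that pair of groups the values of all members are given as a description without a p-value, and for Nrarp in every comparison. RNA sequencing of 18 mammary tumors from 16 female mice was analyzed. The mice were F1 hybrids of BALB/c and C57BL6/J and received an injection of adenovirus carrying Cre recombinase (Ad-Cre) into the mammary gland at 10 to 12 weeks of age. The 7 MaPR172H/- tumors, from 7 mice, carried the R172H missense allele of Trp53 over a deleted allele. The 5 MaPR245W/- tumors, from 5 mice, carried the R245W missense allele over a deleted allele, and the 6 MaP-/- tumors, from 4 mice, had lost both alleles. Recombination was directed to the ductal epithelium, so the stroma of every tumor kept wild-type Trp53. A Rosa26LSL-TdTomato/+ reporter was also present in 3 MaPR172H/- tumors (YZ2, YZ6 and YZ10) and 3 MaPR245W/- tumors (JM1233, JM1564 and RM0014), and in 0 MaP-/- tumors. Mice JM663 and JM833 each gave 2 of the MaP-/- tumors. Tumor names follow the deposited labels, which give JM779-T1 and JM836-T1. The study instead marked JM779-T2 and JM836-T2 as the sequenced tumors of these mice, so the histology of these samples is uncertain.

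Notch receptors are single-pass membrane proteins that are activated when a ligand of the Jagged or Delta-like family on a neighboring cell pulls on them. Proteases of the ADAM family and then the gamma-secretase complex cut the receptor, and the released intracellular domain joins the DNA-binding protein RBPJ (also called CSL) and a Mastermind coactivator to switch on genes such as Hes1, Hey1 and Nrarp. In the mammary gland the pathway is known for its part in luminal cell fate, and Notch3 and Notch4 are also known from pericytes and endothelium, respectively.

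The 250 bases before the transcription starts of the target genes Nrarp and Hes1 are shown because these genes are members known to be switched on through RBPJ. They are given 5′ to 3′ on the strand of the gene, from GRCm39 with the canonical starts of GENCODE M39, and capitals mark the RBPJ (CSL) core motif TGGGAA.
Nrarp, chr2:25070520-25070769, plus strand: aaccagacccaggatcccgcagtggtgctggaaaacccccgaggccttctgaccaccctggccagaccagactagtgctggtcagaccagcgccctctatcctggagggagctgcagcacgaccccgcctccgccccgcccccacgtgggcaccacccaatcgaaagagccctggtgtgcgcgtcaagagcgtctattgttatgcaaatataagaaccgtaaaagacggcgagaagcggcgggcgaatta
Hes1, chr16:29883877-29884126, plus strand: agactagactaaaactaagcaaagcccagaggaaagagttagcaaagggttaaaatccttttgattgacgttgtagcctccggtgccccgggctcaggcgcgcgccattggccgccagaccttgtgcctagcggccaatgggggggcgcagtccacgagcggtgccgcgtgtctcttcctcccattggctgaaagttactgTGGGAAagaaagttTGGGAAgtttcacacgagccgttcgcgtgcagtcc
The core motif was searched on both strands in 21757 promoters and was present in 22.7% of them. The Hes1 promoter held 2 cores, 49 to 44 and 35 to 30 bases before its start. The longer motif GTGGGAA, which overlaps the core, was present in 5.47% of promoters, among them that of Hes1. No TGGGAA lay in this window of Nrarp or of the 7 receptors and ligands. The N box CACNAG, a motif known to be bound by Hes proteins, was present in 36.5% of promoters. It occurred 2 times in the Nrarp window and 3 times in that of Hes1.

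Each library held between 23113578 and 37365062 counts, and Spearman correlations between tumors of one group ranged from 0.862 to 0.970. All MaPR172H/- tumors were sequenced on an Illumina HiSeq and all others on an Illumina NovaSeq instrument, so for every comparison with MaPR172H/- tumors the sequencing platform and the genotype cannot be told apart. The same holds for tumor subtype. The study classed the MaPR172H/- tumors as luminal B or HER2-enriched and the tumors of both other groups as triple-negative. It also classed all MaPR172H/- tumors as nonmetaplastic adenocarcinomas, while both other groups held metaplastic tumors as well. Trp53 itself was measured at 10.8 to 50.3 CPM (counts scaled to a common library size) in MaPR172H/- tumors, 9.09 to 59.0 CPM in MaPR245W/- tumors and 9.43 to 21.6 CPM in MaP-/- tumors. Luminal epithelial markers, which define mammary epithelium, were above 0 in every tumor. Their mean log2 CPM was 3.55 in YZ7 (MaPR172H/-), 3.83 in JM1233 (MaPR245W/-) and 2.75 in JM779-T1 (MaP-/-) against 6.30 to 9.80 in the other tumors. For several results the value without these 3 tumors is given as well. In whole tumors, fewer cells of a type and less RNA per cell cannot be told apart.

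Nrarp, which encodes a small ankyrin repeat protein that binds the Notch intracellular domain and limits its activity, was low in all groups. The gene (ENSMUSG00000078202.4) lies at chr2:25070770-25073351 on the plus strand of GRCm39 and has 2582 exonic bases. In the 7 MaPR172H/- tumors its level ranged from 0.699 to 3.94 CPM with a median of 1.76. In the 6 MaP-/- tumors it ranged from 0.188 to 0.561 CPM with a median of 0.346. All 7 MaPR172H/- tumors lay above all 6 MaP-/- tumors on this scale, as 2.01% of all genes tested did, and this is the pattern by which Nrarp was chosen. In the 5 MaPR245W/- tumors the level was 0.358 CPM in JM1233, 0.340 in JM1564, 0.746 in RM0014, 3.26 in JM1126 and 1.07 in JM1133. RM0014, JM1126 and JM1133 lay above every MaP-/- tumor, and JM1233 and JM1564 lay among them. The fitted log2 difference was 2.26 (SE 0.42) between MaPR172H/- and MaP-/- tumors, 1.60 (SE 0.59) between MaPR245W/- and MaP-/- tumors and 0.64 (SE 0.54) between the mutant groups. Without JM1126 the MaPR245W/- difference from MaP-/- tumors was 0.71, and the difference between the mutant groups was 1.52, or 0.32 without YZ4.

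**Figure D1:**
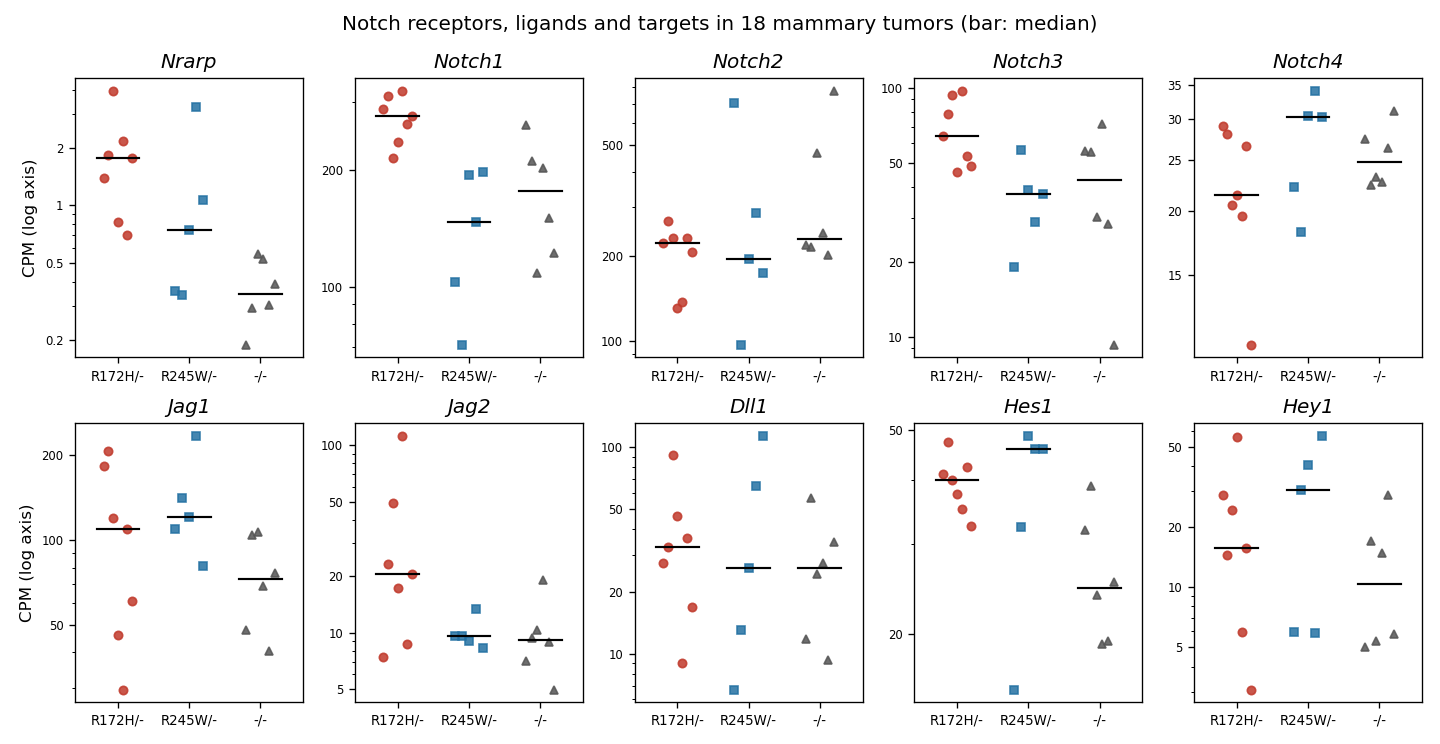
Level of each of the 10 Notch genes in every tumor, as CPM on a log axis, with one panel per gene and tumors placed by genotype (circles MaPR172H/-, squares MaPR245W/-, triangles MaP-/-, bar at the group median). For Nrarp the lowest MaPR172H/- tumor lies at 0.699 CPM and the highest MaP-/- tumor at 0.561 CPM, while for most other genes the groups share a range.

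The separation of Nrarp rested on few reads. The lowest MaPR172H/- tumor, YZ10, and the highest MaP-/- tumor, JM663-T2, each had 17 Nrarp counts. Their 95% exact Poisson intervals, which cover counting error only, were 0.407 to 1.12 CPM and 0.327 to 0.897 CPM and overlap. Over all tumors Nrarp had between 5 and 119 counts. On a per-length scale (TPM, counts divided by exonic length and scaled to a common total), the lowest MaPR172H/- tumor stood at 1.07 TPM and the highest MaP-/- tumor at 1.14 TPM, so the groups overlapped there. The length of a gene is the same in every tumor, so for Nrarp alone this scale and CPM differ in the total used. Scaled to library totals, the lowest MaPR172H/- tumor, YZ10, stood at 0.733 CPM and the highest MaP-/- tumor, JM833-T1, at 0.620 CPM. An antisense transcript, Gm13387, shares 182 exonic bases with Nrarp and had 1300 counts over the 18 tumors against 576 for Nrarp. Another antisense transcript, Gm38287, shares 2051 exonic bases with Nrarp and had 0 counts. The strand setting used in counting is not given in the sources used here. When Nrarp and Gm13387 were summed, the log2 difference from MaP-/- tumors was 0.52 for MaPR172H/- and 0.62 for MaPR245W/- tumors. The difference between the mutant groups turned from 0.64 to -0.13. Gm13387 alone differed by -0.14 (SE 0.48) and 0.38 (SE 0.75) in the same comparisons.

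Per length, Notch2 and Jag1 were among the 3 most abundant members and Nrarp was the least abundant in every group. In MaP-/- tumors Notch2 led with 142 ± 77.9 TPM (SD, n = 6), followed by Notch1 with 58.4 ± 20.6 TPM and Jag1 with 57.6 ± 19.3 TPM. The lowest Notch2 tumor, at 84.1 TPM, lay above the highest Notch1 tumor, at 80.5 TPM. In MaPR172H/- tumors Jag1 (66.8 ± 45.4 TPM, n = 7), Notch1 (66.0 ± 11.2 TPM) and Notch2 (64.9 ± 23.6 TPM) differed by less than their spread. In MaPR245W/- tumors Notch2 (92.5 ± 79.0 TPM, n = 5) and Jag1 (82.6 ± 34.7 TPM) overlapped. Hes1 had the highest mean of the target genes in all 3 groups, with means of 36.0 to 41.2 TPM. Neighbors in these orders overlapped between tumors except for Notch2 over Notch1 and Jag2 over Nrarp in MaP-/- tumors and Notch4 over Jag2 in MaPR245W/- tumors.

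**Figure D2:**
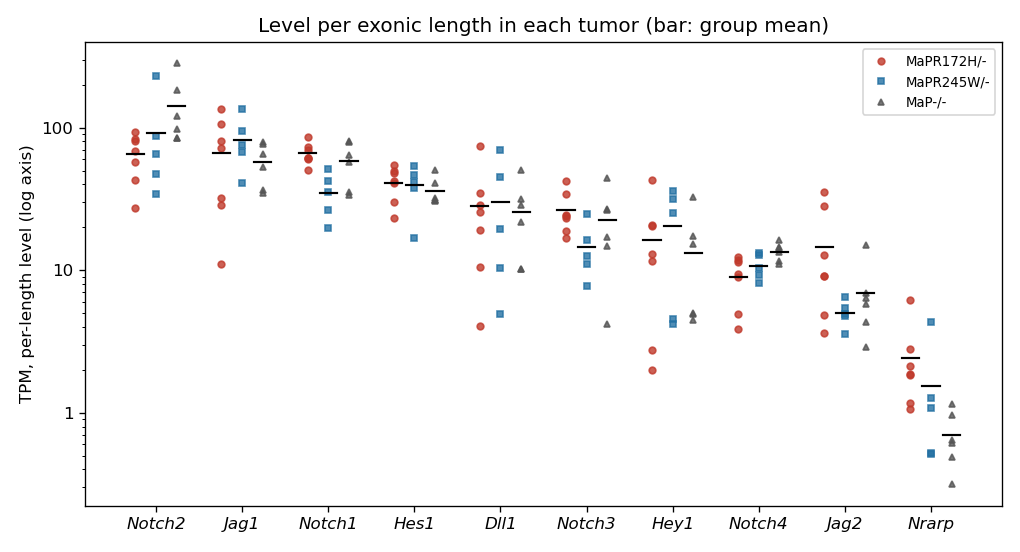
Level per exonic length (TPM, log axis) of the 10 Notch genes in every tumor, colored by genotype, with a bar at each group mean. Nrarp is the lowest gene, with group means of 0.694 to 2.43 TPM, and Notch2 has the highest mean in MaP-/- tumors, at 142 TPM.

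The 9 members other than Nrarp were tested in the comparisons that did not choose them, with edgeR's quasi-likelihood test across all genes and Benjamini-Hochberg adjustment to a false discovery rate (FDR). Between MaPR172H/- and MaPR245W/- tumors 1 of the 9, Notch1, passed an FDR of 0.05, against 9.4% of all genes tested (2.91% higher and 6.49% lower in MaPR172H/- tumors). At an unadjusted p below 0.05 there were 3 of the 9 (25.9% of all genes), and DESeq2 called 2 of the 9, Notch1 and Jag2 (12.3% of all genes). Between MaPR245W/- and MaP-/- tumors 0 of the 9 passed, and 0 genes of the whole table did (0%). In that comparison 1 of the 9, Jag1, had an unadjusted p below 0.05, against 11.8% of all genes, and 0 of the 9 passed with DESeq2, against 1.71% of genes. Between MaPR172H/- and MaP-/- tumors, where 8.4% of genes passed, 8 of the 10 members had a positive log2 difference, with a median of 0.63 against 0.0027 over all genes tested. Nrarp, whose sign there was set by the rule that chose it, is among the 8 and enters the median. These values are a description and no test of the set. The median over the 10 members was 0.29 for MaPR245W/- against MaP-/- tumors and -0.10 between the mutant groups, against 0.020 and 0.0028 over all genes. The comparisons with MaP-/- tumors share those 6 tumors.

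**Figure D3:**
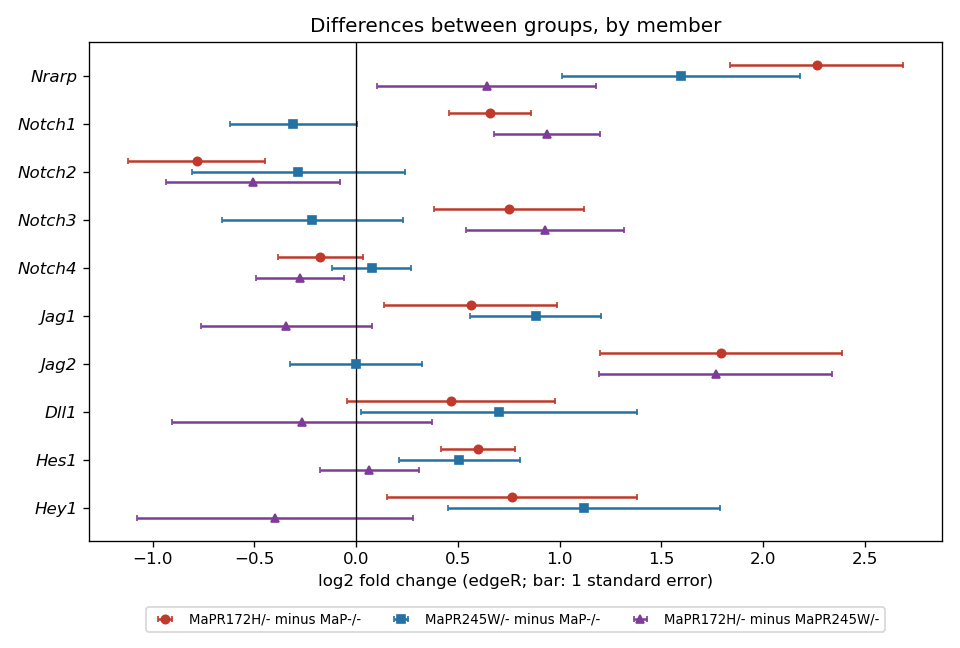
Log2 fold change of each Notch gene in the 3 comparisons (x axis, edgeR), with bars of 1 standard error. Notch1 lies at 0.94 between the mutant groups and Nrarp at 2.26 between MaPR172H/- and MaP-/- tumors, while Notch2 and Notch4 are the members below 0 in the latter comparison.

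Among the receptors, Notch1, a receptor known in mammary epithelium and vessels, was highest in MaPR172H/- tumors. It ranged from 214.7 to 320.8 CPM with a median of 276.2 in the 7 MaPR172H/- tumors. In MaPR245W/- tumors it was measured at 103.1 CPM in JM1233, 70.8 in JM1564, 194.0 in RM0014, 146.9 in JM1126 and 198.4 in JM1133. Every MaPR172H/- tumor lay above every MaPR245W/- tumor. Groups separated in this direction for 1.78% of all genes tested. The log2 difference was 0.94 (SE 0.26, 95% CI 0.39 to 1.49, FDR = 0.0312 by edgeR). The call was lost, at an FDR of 0.0525 to 0.0724, when YZ2, YZ3, JM1233, JM1564 or JM1126 was left out, while the difference stayed between 0.77 and 1.09. Without the 3 tumors of low luminal score it was 0.80, with an FDR of 0.0816. On the TPM scale the lowest MaPR172H/- tumor, at 50.4, lay just below the highest MaPR245W/- tumor, at 50.9. In MaP-/- tumors Notch1 ranged from 108.3 to 261.6 CPM with a median of 176.8, and 5 of 7 MaPR172H/- tumors lay above that range (log2 difference 0.66, SE 0.20). On the TPM scale these 2 groups lay closer together. Notch1 ranged from 50.4 to 85.4 TPM (mean 66.0) in MaPR172H/- and from 33.6 to 80.5 TPM (mean 58.4) in MaP-/- tumors. MaPR245W/- and MaP-/- tumors overlapped, with a difference of -0.31 (95% CI -0.99 to 0.37, FDR = 0.713 by edgeR).

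Notch3, a receptor known from vascular smooth muscle and pericytes, was measured at 46.0 to 97.2 CPM, median 64.0, in MaPR172H/- tumors. In MaPR245W/- tumors the values were 19.1 CPM in JM1233, 56.4 in JM1564, 39 in RM0014, 28.9 in JM1126 and 37.3 in JM1133. In MaP-/- tumors it ranged from 9.28 CPM in JM779-T1 to 71.4 CPM in JM833-T1, with a median of 42.7. In CPM, all 7 MaPR172H/- tumors lay above the median of either other group, but the ranges overlapped. On the TPM scale Notch3 ranged from 16.9 to 42.0 (mean 26.3) in MaPR172H/- and from 4.2 to 44.7 (mean 22.4) in MaP-/- tumors. The log2 difference between the mutant groups was 0.93 (95% CI 0.11 to 1.75) and did not pass (FDR = 0.140 by edgeR). The MaPR172H/- difference from MaP-/- tumors was 0.75 (SE 0.37), and that of MaPR245W/- tumors was -0.21 (95% CI -1.19 to 0.76, FDR = 0.864 by edgeR).

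Notch2, a receptor that is broadly expressed, varied 8.0-fold between the lowest and the highest tumor. It was measured at 131.5 to 267.6 CPM in MaPR172H/- tumors, 97.0 to 702.6 CPM in MaPR245W/- tumors and 203.1 to 776.7 CPM in MaP-/- tumors. The highest values were in JM779-T1 (776.7 CPM) and JM1233 (702.6 CPM), both among the 3 tumors of low luminal score, while the third of these, YZ7, had 137.8 CPM. The log2 difference between MaPR172H/- and MaP-/- tumors was -0.78 (SE 0.34), and -0.29 without the 3 tumors. In the comparison of both mutants it was -0.51 (95% CI -1.41 to 0.39, FDR = 0.484 by edgeR) and turned to 0.20 without the 3 tumors. Between MaPR245W/- and MaP-/- tumors it was -0.28 (95% CI -1.43 to 0.86, FDR = 0.847 by edgeR), with values from -0.91 without JM1233 to 0.10 without JM779-T1. Notch4, a receptor known from endothelium, was measured at 11.02 to 34.03 CPM over all tumors, a 3.09-fold range, close to the 3.12-fold range of Hes1. In MaPR172H/- tumors 4 of 7 lay below every MaP-/- tumor, and all 7 lay below the MaPR245W/- median of 30.4 CPM. The differences were small, at -0.18 (SE 0.21) for MaPR172H/- against MaP-/- tumors, -0.28 (95% CI -0.73 to 0.18, FDR = 0.452 by edgeR) between the mutant groups and 0.08 (95% CI -0.35 to 0.50, FDR = 0.893 by edgeR) for MaPR245W/- against MaP-/- tumors.

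Among the ligands, Jag2, the other Jagged ligand, had the widest range of all members, 22.4-fold. In MaPR172H/- tumors it was measured at 7.43 to 111.6 CPM with a median of 20.5. The highest value belonged to YZ7, and the next, in YZ4, was 49.3 CPM. In MaPR245W/- tumors it lay between 8.32 and 13.5 CPM, and in MaP-/- tumors between 4.98 and 19.1 CPM. In CPM, YZ2, YZ10 and YZ6, at 7.43, 8.68 and 17.4, lay within the range of the MaP-/- tumors. The other 4 of 7 MaPR172H/- tumors lay above it, and 5 of 7 lay above every MaPR245W/- tumor. On the TPM scale YZ4 and YZ7, at 28.09 and 35.18, lay above the highest MaP-/- tumor, JM833-T1, at 15.15. YZ3 and YZ11, at 12.86 and 9.05 TPM, did not. The log2 difference between the mutant groups was 1.77 (SE 0.57, 95% CI 0.57 to 2.97) and missed the threshold (FDR = 0.0600 by edgeR), although DESeq2 called it. Without YZ7 it was 1.08. Without YZ2 or YZ10 it passed (FDR = 0.0366 and 0.0416 by edgeR). The MaPR172H/- difference from MaP-/- tumors was 1.79 (SE 0.60), or 1.12 without YZ7. Without the 3 tumors of low luminal score these differences were 1.06 and 0.99. For MaPR245W/- against MaP-/- tumors it was -0.002 (95% CI -0.71 to 0.71, FDR = 0.999 by edgeR), with a sign that depended on the setting.

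Jag1, the Jagged ligand known for its role in vessel and bile duct development, was measured in MaPR245W/- tumors at 109.2 CPM in JM1233, 141.4 in JM1564, 120.7 in RM0014, 234.1 in JM1126 and 80.8 in JM1133. In MaP-/- tumors it ranged from 40.3 to 107.1 CPM with a median of 72.8. In CPM, all but JM1133 lay above every MaP-/- tumor. On the TPM scale JM1564 and JM1126, at 94.2 and 134.5, lay above the highest MaP-/- tumor, at 79.3. JM1233 and RM0014, at 67.3 and 75.6 TPM, did not. The log2 difference was 0.88 (SE 0.32, 95% CI 0.18 to 1.58) but did not pass (FDR = 0.362 by edgeR). In MaPR172H/- tumors Jag1 ranged from 29.5 CPM in YZ7 to 207.4 CPM in YZ3 and overlapped both other groups. The differences of MaPR172H/- tumors were 0.56 (SE 0.43) from MaP-/- and -0.34 (95% CI -1.23 to 0.54, FDR = 0.650 by edgeR) from MaPR245W/- tumors. Dll1, a Delta-like ligand known from stem-like mammary cells, ranged 17-fold, from 6.69 CPM in JM1233 to 113.4 CPM in JM1133, which are both MaPR245W/- tumors. The group medians were 32.7 CPM for MaPR172H/-, 26.0 CPM for MaPR245W/- and 26.0 CPM for MaP-/- tumors, and the groups overlapped throughout. The log2 difference of MaPR245W/- from MaP-/- tumors was 0.70 (95% CI -0.78 to 2.18, FDR = 0.701 by edgeR), and 0.01 without JM1133. That of MaPR172H/- tumors was 0.47 (SE 0.51), and 0.03 without YZ4. In the comparison of both mutants it was -0.27 (95% CI -1.61 to 1.07, FDR = 0.832 by edgeR), and 0.43 without JM1133. Dll1 shares 1369 exonic bases with Fam120b, a protein-coding gene on the other strand with 28941 counts against 18423, so its counts are uncertain.

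Among the other targets, Hes1, a repressor that is a direct target of the Notch intracellular domain in many cell types, varied little. It lay at 32.5 to 47.3 CPM, median 39.9, in MaPR172H/- tumors and at 19.1 to 38.9 CPM, median 24.6, in MaP-/- tumors. In CPM, all 7 MaPR172H/- tumors lay above the MaP-/- median and 4 above every MaP-/- tumor (log2 difference 0.60, SE 0.18). On the TPM scale Hes1 ranged from 23.2 to 54.7 (mean 41.2) in MaPR172H/- and from 30.7 to 50.3 (mean 36.0) in MaP-/- tumors. In MaPR245W/- tumors it was measured at 15.6 CPM in JM1233, 32.3 in JM1564, 48.7 in RM0014, 45.9 in JM1126 and 45.8 in JM1133. In CPM, RM0014, JM1126 and JM1133 lay above every MaP-/- tumor, the same 3 as for Nrarp, and JM1233 was the lowest of all 18 tumors. On the TPM scale RM0014, JM1126 and JM1133 stood at 53.8, 46.5 and 41.3. The log2 difference of MaPR245W/- from MaP-/- tumors was 0.51 (95% CI -0.14 to 1.16, FDR = 0.517 by edgeR). Between the mutant groups it was 0.06 (95% CI -0.45 to 0.58, FDR = 0.897 by edgeR) and turned to -0.11 without the 3 tumors of low luminal score. Hey1, a related repressor known from vessels and heart, ranged 18.4-fold, from 3.07 CPM in YZ11 to 56.5 CPM in JM1133. It lay at 3.07 to 56.1 CPM in MaPR172H/-, 5.92 to 56.5 CPM in MaPR245W/- and 5.01 to 28.6 CPM in MaP-/- tumors, and the groups overlapped. The differences were 0.77 (SE 0.61) for MaPR172H/- and 1.12 (95% CI -0.34 to 2.58, FDR = 0.523 by edgeR) for MaPR245W/- against MaP-/- tumors, and -0.40 (95% CI -1.83 to 1.03, FDR = 0.756 by edgeR) between the mutant groups. Without YZ6 the MaPR172H/- value was 0.30, and without JM1133 the MaPR245W/- value was 0.70.

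A list of 50 other Notch pathway genes was examined in the same fits. Between the mutant groups 46 were tested, of which 3 were higher and 3 lower in MaPR172H/- tumors with edgeR, against 2.91% and 6.49% of all genes tested, with a median log2 difference of 0.11 over the list against 0.0028 over all genes. The higher genes included Mib2, a ubiquitin ligase for Notch ligands (0.74, SE 0.20, FDR = 0.0299 by edgeR), and Spen, a corepressor that binds RBPJ (0.61, SE 0.18, FDR = 0.0412). The lower genes were the gamma-secretase subunits Psenen (-1.06, SE 0.20, FDR = 0.00235 by edgeR) and Aph1a (-0.97, SE 0.25, FDR = 0.0222), and Mib1, another ubiquitin ligase for Notch ligands (-0.68, SE 0.20, FDR = 0.0381). Psenen lay at 4.40 to 8.51 CPM in MaPR172H/- tumors and 10.2 to 20.0 CPM in MaPR245W/- tumors, with no overlap. Aph1a lay at 12.52 to 19.0 and 21.2 to 41.7 CPM, and Mib2 at 38.0 to 76.9 and 24.7 to 34.1 CPM, again with no overlap. Of all genes tested, 1.78% were separated with higher and 4.05% with lower values in MaPR172H/- tumors. Spen and Mib1 overlapped between these groups. The Psenen call held when any 1 tumor was left out. The Spen call was lost in 13 of 18 such fits and the Mib1 call in 8. The Mib2 call was lost without YZ4, JM1564, RM0014 or JM1126, and the Aph1a call without RM0014 or JM1133. Without the 3 tumors of low luminal score the Mib2, Spen and Mib1 differences were 0.62, 0.49 and -0.62 and did not pass.

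**Figure D4:**
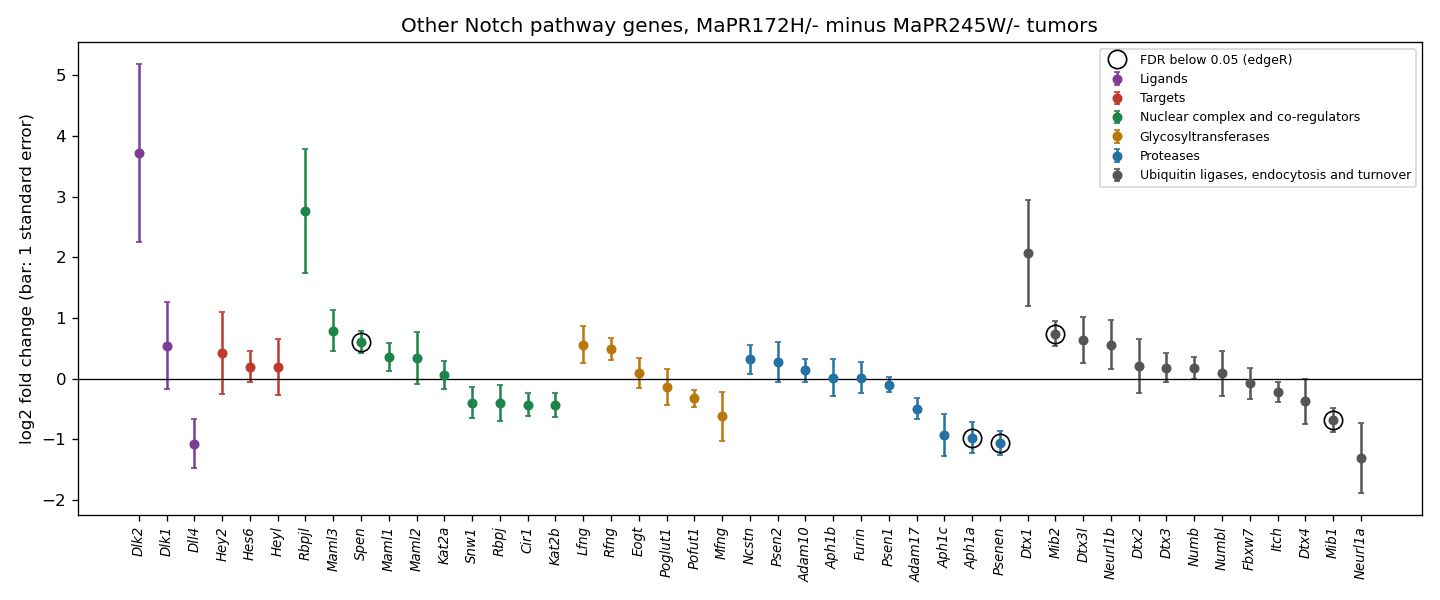
Log2 fold change of the other Notch pathway genes between MaPR172H/- and MaPR245W/- tumors, grouped by role and ordered by value within a role, with bars of 1 standard error and a ring around genes with an FDR below 0.05. Psenen, at -1.06, Aph1a, at -0.97, and Mib2, at 0.74, are among the ringed genes.

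Against MaP-/- tumors 44 of the 50 genes were tested. For MaPR172H/- tumors 2 passed, both higher, among them Mib2 (0.78, SE 0.21, FDR = 0.0348 by edgeR), against 3.67% of all genes called higher. Neither passed when the tumors of 1 mouse were summed or without a filter on low counts, and 0 of the list passed without YZ4, JM663-T2 or JM833-T2. For MaPR245W/- tumors 0 of 44 passed with edgeR (0% of all genes) and 0 with DESeq2 (1.71%), and 4 had an unadjusted p below 0.05 with edgeR (11.8%). Of the pathway genes named by rule, the targets Hey2 and Heyl differed by 1.87 (SE 0.64) and 0.99 (SE 0.45) for MaPR172H/- against MaP-/- tumors. For MaPR245W/- against MaP-/- tumors they differed by 1.41 (SE 0.63) and 0.78 (SE 0.35). Neither passed with edgeR, while DESeq2 called Hey2 for MaPR172H/- tumors. When 1 tumor was left out, the MaPR172H/- difference fell to 1.42 for Hey2 (without YZ4) and 0.39 for Heyl (without YZ7). The MaPR245W/- difference fell to 0.50 for Hey2 (without JM1233) and 0.40 for Heyl (without JM1126). Hey2 had 4 to 39 counts in MaP-/- tumors. Dll4, a ligand known from sprouting vessels, was 0.59 lower on the log2 scale in MaPR172H/- than in MaP-/- tumors and 1.07 lower than in MaPR245W/- tumors (95% CI -1.93 to -0.21, FDR = 0.106 by edgeR). Without JM1126 the Dll4 difference between the mutant groups was -0.46. Rbpj, the DNA-binding partner, differed by -0.65 (SE 0.27) and Lfng, a glycosyltransferase acting on the receptors, by 0.57 (SE 0.21) for MaPR172H/- against MaP-/- tumors, and neither passed with edgeR or DESeq2. Hes5 had 0 to 2 counts in every tumor and was not tested.

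Because several members are also expressed in vessels or epithelium, their deviations from the group mean of log2 CPM were set against scores of endothelial, pericyte and luminal epithelial markers. Of 30 relations, 1 passed the adjustment. Notch1 went with the pericyte score (Pearson's r = 0.64, two-sided permutation p = 0.00031, adjusted p = 0.0093, Spearman's rho = 0.75, permutation p = 0.00033, adjusted p = 0.0099, 18 tumors). Without YZ7 and JM836-T1, whose score deviations from the group mean lay farthest from the median deviation, r was 0.71. Within the 7 HiSeq tumors r was 0.73 and within the 11 NovaSeq tumors 0.81. With the tumors of each mouse summed, r was 0.59 and the relation no longer passed. The pericyte score itself had a summed marker level of 295.1 to 1295 CPM in MaPR172H/-, 537.1 to 1125 CPM in MaPR245W/- and 324.9 to 701.6 CPM in MaP-/- tumors. Notch3 also went with the pericyte score (r = 0.52, rho = 0.56) but did not pass (adjusted permutation p = 0.256 for r and 0.354 for rho). Nrarp went with the endothelial score with r = 0.59 and rho = 0.42, which did not pass (adjusted permutation p = 0.260 for r and 0.467 for rho), and r was 0.26 without JM1564 and JM1126, 0.0029 within the HiSeq tumors and 0.76 within the NovaSeq tumors. Relations with the luminal score are given without a coefficient since 3 tumors stood far below the rest.

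**Figure D5:**
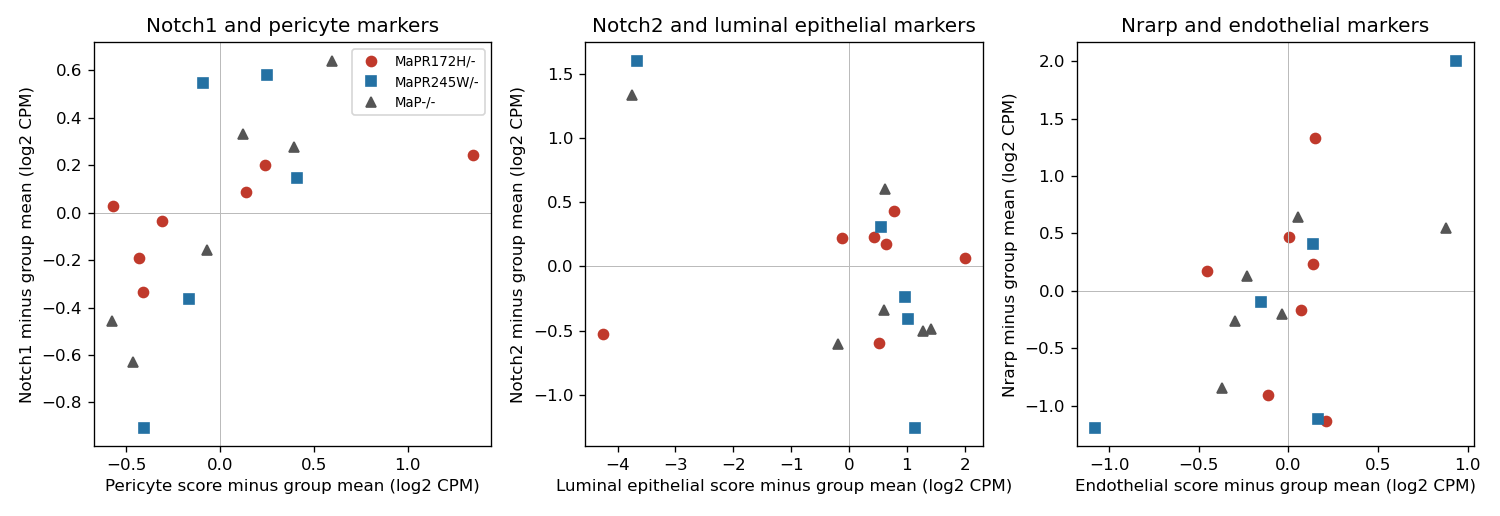
Deviation from the group mean of log2 CPM for Notch1 against the pericyte score, Notch2 against the luminal epithelial score and Nrarp against the endothelial score, one point per tumor, marked by genotype. The Notch1 panel shows the relation with r = 0.64, and in the Notch2 panel the 3 tumors of low luminal score stand apart at the left.

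Cell type markers moved between the groups as well, and their part in the differences above was not tested. Calls are by edgeR unless DESeq2 is named. Between MaPR172H/- and MaP-/- tumors DESeq2 called 3432 genes against 1760 with edgeR, so the edgeR shares are no background for its calls. Between the mutant groups DESeq2 called 12.3% of all genes. Between MaPR172H/- and MaP-/- tumors, where 3.67% of all genes were called higher and 4.73% lower, the log2 difference was positive for 0 of 12 endothelial markers (3 called lower, median -0.47), 0 of 8 immune markers (4 called lower) and 5 of 7 pericyte markers (0 called). All 8 luminal markers were positive, with a median of 1.33 and 0 called, while DESeq2 called 1, Cldn3. Of 7 fibroblast markers, 3 were called lower, and 5 with DESeq2. All 6 basal epithelial markers tested were positive, with a median of 2.86, and 0 of 5 adipocyte markers were, with a median of -3.61. Of these 2 lists 0 markers were called, while DESeq2 called Krt17 higher and Fabp4 lower. In the comparison of both mutants 0 of 12 endothelial markers were positive and 0 were called (2 lower with DESeq2, Cldn5 and Esam), and 1 of 7 pericyte markers was positive (1 called lower). There, 3 of 8 immune and 1 of 7 fibroblast markers and 4 of the 4 skeletal muscle markers tested were called lower in MaPR172H/- tumors, against 6.49% of all genes. All 7 basal epithelial markers were positive, with a median of 4.41 and 0 called, while DESeq2 called 3 higher (Krt5, Krt17 and Col17a1). Between MaPR245W/- and MaP-/- tumors all 7 pericyte markers were positive, with a median of 0.66 and 0 called, while DESeq2 called 1, Des. All 8 luminal markers were positive there too, with a median of 1.01 and 0 called. DESeq2, which called 1.71% of all genes in that comparison, also called all 5 skeletal muscle markers higher and 2 adipocyte markers lower. The 3 lists used for the scores had no marker at 0 in any tumor, and the summed endothelial level was 284.9 to 447.8 CPM in MaPR172H/-, 239.3 to 896.0 CPM in MaPR245W/- and 433.7 to 978.7 CPM in MaP-/- tumors.

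Among the members themselves, the deviations from the group means gave r = -0.69 for Notch2 and Notch3 over 18 tumors, but -0.27 without the 3 tumors of low luminal score. Dll1 and Hes1 gave r = 0.64, and 0.47 without them. Nrarp gave r = 0.50 with Jag2 and 0.49 with Dll1, and 0.64 and 0.52 without the 3 tumors. With Notch2 it gave 0.16, and 0.71 without them. With Hes1 and Hey1 it gave 0.26 and -0.21, and 0.012 and -0.36 without them. The genes of each pair were measured in the same libraries, and Nrarp at low counts. Over the whole table, the protein-coding genes whose deviations were most like those of Nrarp were Ece1 (r = 0.87), Prdx5 (r = 0.81) and Chst15 (r = 0.80). For Notch1 they were Nr2c2, Ccdc174 and Hoxa5, each at 0.78, and for Notch2 Tlr2 (0.92), Hspa4l (0.92) and Mcub (0.91). For Notch3 they were Ybx2 (0.89), Rapgefl1 and Naalad2 (0.86 each), and for Notch4 Gng11 (0.85), F2rl3 (0.83) and Htr1b (0.82). For Jag1 they were Pappa (0.84), Prep and Ephb6 (0.83 each), for Jag2 Tmem158 (0.90), Insc and P2rx4 (0.88 each), and for Dll1 Stra6l (0.81), Ndel1 (0.79) and Muc13 (0.77). For Hes1 they were Pgf and Ephb4 (0.87 each) and Ptk7 (0.86), and for Hey1 Chrm3 (0.83), Polr1g and Foxi1 (0.82 each). These values were chosen as the highest among 15193 genes.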

How the data were processed

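Total RNA of 18 mammary tumors was sequenced from stranded, ribosomal RNA-depleted libraries. The authors deposited raw counts per gene (Ensembl identifiers), made with FastQC 0.11.9, STAR 2.7.10b and RSEM 1.3.3 on GRCm39 with GENCODE M34. The strand setting is not given in the sources used here. Symbols and exon lengths came from GENCODE M39 (506 identifiers were unmatched). Groups followed the genotype labels. Counts were tested with edgeR 4.0.16 (TMM, filterByExpr, quasi-likelihood test, Benjamini-Hochberg adjustment over all genes tested), in fits of 13 tumors (MaPR172H/- against MaP-/-), 11 tumors (MaPR245W/- against MaP-/-) and 18 tumors (between the mutant groups), with DESeq2 1.42.0 as an alternative. CPM used TMM library sizes, and TPM were computed here from the counts and exon lengths. Log2 CPM used a prior count of 0.5. Scores were the mean log2 CPM of a marker list, and correlations used 100000 permutations within groups. Leaving out each tumor, other filters, other scalings and fold thresholds were tried, and so were sums over the tumors of each mouse. The alternatives that summed Nrarp with Gm13387, kept protein-coding genes alone, used library totals or left out the 3 tumors of low luminal score, also for the member pairs, were chosen after seeing the data. The fits were tested on simulated data. The members and all lists were chosen with earlier results of these data known. Named genes were the 10 members, pathway genes named in the list rule or passing the FDR in any fit, and the 3 most similar protein-coding genes per member. A gene of the pathway list, which counts in the totals, and a promoter sequence are not reported here. A pair of tumors came from each of mice JM663 and JM833 and entered as separate samples, so p-values measure the spread between tumors. Tools were R 4.3.3, limma 3.58.1, Python 3.11.15, numpy 2.4.6, scipy 1.17.1, pandas 2.3.3 and matplotlib 3.10.9.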

Additional observations from a re-analysis of the deposited data

Results flagged for a closer look

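In 3 of 30 combinations of member and group, 1 tumor stood far from the others by Dixon's test, which chance alone gives in about 1 in 20 groups. Nrarp in the MaPR245W/- tumor JM1126 was measured at 3.262 CPM, and the next highest of the 5 tumors at 1.069 CPM. Jag2 in the MaPR172H/- tumor YZ7 was measured at 111.6 CPM, and the next highest of the 7 tumors at 49.3 CPM. Jag2 in JM1126 was measured at 13.46 CPM, and the next highest MaPR245W/- tumor at 9.643 CPM.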

How the results depend on the processing

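No paired analysis was possible because the replicate numbers follow accession order and the labels pair no tumors across groups. Nrarp had 5 to 119 counts per tumor, which limits its precision. Except where a filter is said to have removed a gene, the cause of each change below was not tested. For MaPR172H/- against MaP-/- tumors, 1760 genes passed, against 3432 with DESeq2, 1126 with the tumors of a mouse summed, 1059 with protein-coding genes alone, 1051 with an absolute log2 change of at least 1 and 287 above 2, and 1067 (without JM663-T2) to 1866 when 1 tumor was left out. The number of members under the threshold there, which is a description since this pair of groups chose Nrarp, was 1 (Nrarp itself). With DESeq2 it was 4 (Nrarp, Notch1, Jag2 and Hes1), among the 3432 genes called, whose share of all genes tested is not given here. With at least 10 counts in every tumor the number of members was 0. That filter removed Nrarp itself, which had 5 counts in JM836-T1, 8 in JM663-T1 and 9 in JM833-T2. The number was 2 in the fit of 18 tumors and 1 to 2 when 1 tumor was left out. Of the other pathway genes 2 passed, against 6 with DESeq2 (among the same 3432 genes), 0 with no filter, summed mice or either fold threshold, and 0 to 3 when 1 tumor was left out.

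For MaPR245W/- against MaP-/- tumors, 0 genes passed, against 424 with DESeq2, 2 in the fit of 18 tumors, 1 without the 3 tumors of low luminal score and 0 to 3 when 1 tumor was left out. Members and other pathway genes stayed at 0 to 0. Between the mutant groups 2114 genes passed, against 3699 with DESeq2, 1401 with at least 10 counts, 875 with protein-coding genes alone, 1392 and 526 with the fold thresholds of 1 and 2, and 1525 to 2362 when 1 tumor was left out. Of the members 1 passed, against 2 with DESeq2, 0 with no filter, 0 with either fold threshold, 0 without the 3 tumors of low luminal score and 0 to 2 when 1 tumor was left out. Of the other pathway genes 6 passed, against 2 with no filter, 3 in the fit of the 12 mutant tumors, 3 without the 3 tumors, 1 and 0 with the fold thresholds, and 3 to 6 when 1 tumor was left out. The count of relations with cell type scores was 1, against 0 with summed mice and 1 to 2 when 1 tumor was left out.

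Some differences changed sign, as did that of Nrarp between the mutant groups (-0.13) when it was summed with Gm13387. For MaPR245W/- against MaP-/- tumors, Notch4 was -0.1168 with library totals. Jag2 was 0.054 with DESeq2, 0.03035 with its size factors, 0.03077 with no filter, 0.1559 with summed mice and 0.006302 in the fit of 18 tumors. Lfng was 0.02783, 0.009218, 0.008207 and 0.006253 under the first 4 of these settings. Mib2 was -0.01938 with at least 10 counts, -0.1735 with library totals and -0.003692 without the 3 tumors. Without those 3 tumors Notch2, Hes1 and Heyl turned to 0.1951, -0.1075 and -0.5659 between the mutant groups. When 1 tumor was left out the ranges that crossed 0 for MaPR245W/- against MaP-/- tumors were -0.9121 to 0.1038 (Notch2), -0.4286 to 0.00708 (Notch3), -0.02664 to 0.1927 (Notch4), -0.143 to 0.29 (Jag2), -0.1672 to 0.6681 (Dll4), -0.2592 to 0.1989 (Lfng) and -0.06613 to 0.1156 (Mib2). For the mutant groups they were -0.7275 to 0.12 (Notch2), -0.669 to 0.4276 (Dll1), -0.1328 to 0.179 (Hes1), -0.8597 to 0.02574 (Hey1) and -0.4188 to 0.5535 (Heyl). Library totals in place of TMM moved the median of all genes to -0.16 for MaPR245W/- against MaP-/- tumors and to 0.12 between the mutant groups.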
